A study of Homo sapiens with 9 samples.

Results

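The transcripts of 53 genes of DNA damage signalling and break repair were followed in HCT116 cells that carry a catalytic mutation of the ubiquitin ligase HUWE1. The genes were taken by symbol from a list drawn up with earlier results of these data known, and all 53 are among the 11350 genes counted. They comprise 7 kinases and kinase activators, 10 genes that act at broken DNA ends, 9 of homologous recombination, 4 helicases and helicase partners, 13 Fanconi anemia and nuclease genes, 4 of fork remodelling and post-replication repair, and 6 of end joining and ADP-ribosylation. HCT116 is an established human colorectal carcinoma cell line. RNA was sequenced from parental cells (HUWE1-P) and from cells in which the catalytic cysteine of endogenous HUWE1 had been exchanged by CRISPR for serine (HUWE1-CS) or again for cysteine (HUWE1-WT), without treatment and with 3 biological replicates per line. Both edited lines, and not the parental cells, went through transfection, drug selection and single cell cloning, and carry a blasticidin resistance gene linked to HUWE1 by a P2A site. Whether the replicates of an edited line come from 1 clone is not stated, so that the serine codon and a difference between clones cannot be told apart, and p-values measure the spread between these replicates alone.

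A double-strand break is bound by the MRN complex of MRE11, RAD50 and NBN, which recruits and activates the kinase ATM. Single-stranded DNA at a stalled replication fork instead recruits ATR with its partner ATRIP, and both kinases pass the signal to the checkpoint kinases CHEK2 and CHEK1. Breaks are then joined directly by the Ku and DNA-PK system or resected and copied from the sister chromatid by homologous recombination, while helicases, Fanconi proteins and fork remodelers protect and restart forks. WRNIP1 is an ATPase that binds stalled forks, and the study is about the activation of ATM where transcription collides with replication. The comparison addressed here is whether the transcripts of these proteins differ in HUWE1-CS cells. Protein levels and phosphorylation are not read by it.

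The libraries held from 1610984 to 2060349 counts. Levels are given as CPM, normalized counts scaled to a common library total, and the floor of 3 counts corresponds to between 1.45 and 1.86 CPM. This floor covers counting error only. All members lay above it, the lowest count of a member in any library being 7, and together they took between 0.552% and 0.593% of the counts of a library. Colon epithelial markers were measured for 7 of 8 genes, for example EPCAM at 363 ± 15.6 CPM (SD, n = 3) in HUWE1-P cells. VIL1 and the 5 markers of leukocytes, endothelium and fibroblasts are not among the genes counted, so no level can be given for them. HUWE1 itself had 543 ± 19.8 CPM in HUWE1-P, 469 ± 25.8 CPM in HUWE1-WT and 336 ± 11.7 CPM in HUWE1-CS cells (SD, n = 3 each), and the exchanged codon cannot be seen in counts per gene.

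Most of the module did not pass the test. The test was the quasi-likelihood test of edgeR over all genes, and a gene was called at a false discovery rate (FDR) of at most 0.01. In HUWE1-CS against HUWE1-P cells, 8 of the 53 members were called (15.1%), beside 17.0% of all genes. Of these 8, 5 were lower and 3 higher, where 8.58% of all genes were called lower and 8.46% higher. With RLE size factors the split was 4 lower and 4 higher, and in DESeq2, which called 4 members (7.55%, beside 9.59% of all genes), it was 1 lower and 3 higher. Against HUWE1-WT cells, 7 members were called (13.2%), 4 lower and 3 higher, beside 15.5% of all genes, 8.08% lower and 7.42% higher. The shares of called members are thus close to the shares of all genes in both comparisons. HUWE1-WT against HUWE1-P cells had 0 called members in edgeR and 0 in DESeq2, with 3 at an unadjusted p under 0.05, and 0.0617% of all genes were called.

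NBN, RBBP8 and PARP2 were lower and WRNIP1 and HLTF higher in HUWE1-CS cells than in both control lines. These 5 members (of 53) compare with 12.2% of all genes called against both. Of the other called members, XRCC3 and SLX4 were lower and SMARCAL1 higher against HUWE1-P cells alone, and XRCC2 was lower and XRCC6 higher against HUWE1-WT cells alone. The comparisons share the HUWE1-CS libraries and are not independent of each other. All 3 HUWE1-CS libraries lay below all 6 control libraries for 9 members, beside 13.4% of all genes, and above them for 5, beside 12.9%. With HUWE1-CS cells set against the mean of both control lines, a comparison added after seeing the data, 12 members were called, 7 lower and 5 higher, beside 21.4% of all genes. It adds TOPBP1 and PARP1 to the 10 genes named above.

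The regions upstream of called members with the smallest p-values in each direction are shown, to set short words known from cell cycle and stress promoters beside the direction of the gene. Promoters were taken from RefSeq on GRCh38.p14, which had an entry for 47 of 53 members, NBN, WRN, WRNIP1, FANCI, XRCC5 and PRKDC being the others. Both strands from 250 bases before to 50 bases after the start were searched for the E2F-type words TTTCCCGC, TTTCGCGC, TTTGCCGC and TTTGGCGC, for the cell cycle homology word TTTGAA, for CCAAT and for the cAMP response word TGACGTCA. No word contains another, TGACGTCA reads the same on both strands, and the words were chosen with the values known. Printed below, 5′ to 3′ on the strand of the gene with these words in capitals, are the 250 bases before the start of HLTF (chr3:149086534-149086783, minus strand), SMARCAL1 (chr2:216412234-216412483, plus strand), PARP2 (chr14:20343385-20343634, plus strand) and RBBP8 (chr18:22933078-22933327, plus strand). XRCC2 is printed from 250 bases before to 30 bases after its start (chr7:152676112-152676391, minus strand), and XRCC6 only at its E2F-type word (chr22:41621315-41621344, plus strand).
HLTF: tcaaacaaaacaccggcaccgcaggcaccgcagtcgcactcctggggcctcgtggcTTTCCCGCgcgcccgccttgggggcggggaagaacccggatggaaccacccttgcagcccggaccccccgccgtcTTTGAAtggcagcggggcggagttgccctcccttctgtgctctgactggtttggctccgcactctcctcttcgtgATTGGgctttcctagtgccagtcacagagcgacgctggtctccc
SMARCAL1: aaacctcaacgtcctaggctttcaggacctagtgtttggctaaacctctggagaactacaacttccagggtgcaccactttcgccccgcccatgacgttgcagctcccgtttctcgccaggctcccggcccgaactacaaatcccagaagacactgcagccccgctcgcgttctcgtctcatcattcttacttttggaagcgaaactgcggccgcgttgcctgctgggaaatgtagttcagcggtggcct
PARP2: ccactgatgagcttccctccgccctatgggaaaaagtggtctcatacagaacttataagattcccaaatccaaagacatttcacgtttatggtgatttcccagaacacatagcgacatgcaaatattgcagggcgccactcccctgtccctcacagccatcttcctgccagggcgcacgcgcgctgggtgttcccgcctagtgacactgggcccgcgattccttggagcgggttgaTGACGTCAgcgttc
RBBP8: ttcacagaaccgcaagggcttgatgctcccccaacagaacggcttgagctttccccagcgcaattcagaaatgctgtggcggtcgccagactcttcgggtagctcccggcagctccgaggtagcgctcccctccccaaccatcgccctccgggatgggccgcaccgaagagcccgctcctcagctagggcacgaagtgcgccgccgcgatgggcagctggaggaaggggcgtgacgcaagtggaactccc
XRCC2: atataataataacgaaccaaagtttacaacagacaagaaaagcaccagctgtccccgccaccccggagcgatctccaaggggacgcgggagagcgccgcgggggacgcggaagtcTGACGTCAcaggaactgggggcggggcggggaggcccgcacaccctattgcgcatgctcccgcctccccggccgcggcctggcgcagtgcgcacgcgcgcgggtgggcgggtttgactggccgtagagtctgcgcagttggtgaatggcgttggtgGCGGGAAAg
XRCC6: tgtccaagttggtcgcttccctGCGCCAAA

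The same E2F-type word stood in members of opposite direction. HLTF, which was higher, holds TTTCCCGC from 194 to 187 bases before its start as well as TTTGAA and a CCAAT word on the minus strand, and XRCC2, which was lower, holds TTTCCCGC on the minus strand from 22 to 29 bases after its start. An E2F-type word was found in 8 of 47 members (17.0%), beside 3.33% of all 27305 promoters and 5.74% of the 8821 promoters of counted genes. The other 6 were EXO1, FANCA, FANCC, FANCD2, TOPBP1 and XRCC6, with log2 fold changes from -0.34 to 0.18 against HUWE1-P cells. TGACGTCA stood in 4 of 47, EXO1, PARP2, RAD51C and XRCC2 (8.51%, beside 1.98% of all promoters and 3.42% of those of counted genes). CCAAT stood in 22 (46.8%, beside 35.7% and 37.0%) and TTTGAA in 5 (10.6%, beside 15.4% and 8.96%). SMARCAL1 and RBBP8 hold none of these words in the windows shown. A word is a description of the sequence and not a binding site.

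**Figure D1:**
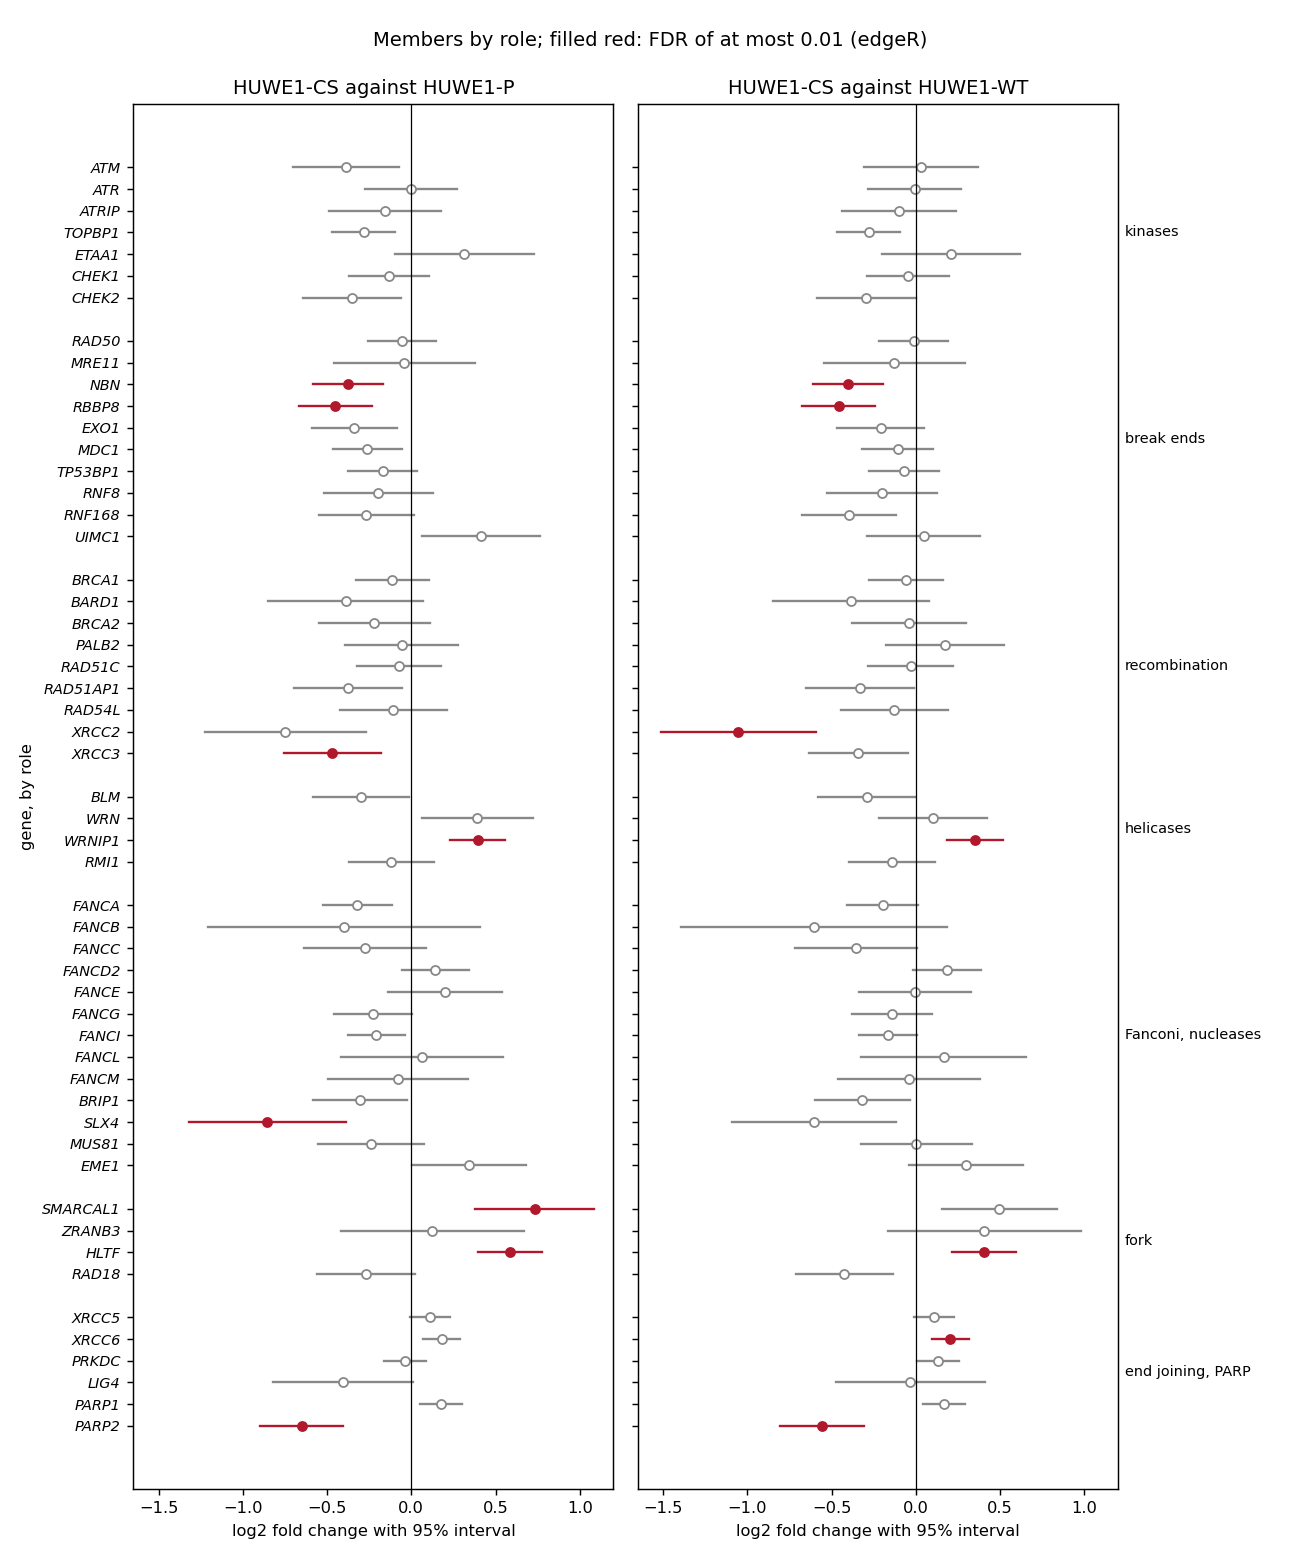
Fitted log2 fold change (x axis) of each of the 53 members (y axis, grouped by role) in HUWE1-CS against HUWE1-P cells (left) and against HUWE1-WT cells (right), with 95% intervals. Filled red points were called by edgeR at an FDR of at most 0.01, 8 on the left and 7 on the right, and the median interval reaches 0.286 to either side on the left and 0.288 on the right.

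The fitted log2 fold changes of the members leaned below 0. Their median was -0.17 in HUWE1-CS against HUWE1-P cells, where all genes had -0.01, and 39 of 53 members (73.6%) were below 0, beside 50.9% of all genes. Against HUWE1-WT cells the median was -0.07 with 36 of 53 below 0 (67.9%, beside 50.0% of all genes), and it was -0.12 without HUWE1-WT replicate 1 and -0.11 without HUWE1-CS replicate 1. In HUWE1-WT against HUWE1-P cells the median was -0.03 with 31 below 0 (58.5%, beside 50.4% of all genes), and it ranged from -0.05 to 0.01 with each library left out, above 0 without HUWE1-WT replicate 1. At an unadjusted p under 0.05, 16 members (30.2%) were lower and 8 (15.1%) higher in HUWE1-CS against HUWE1-P cells, beside 18.5% and 17.6% of all genes. Of the 45 members not called there, 43 had a 95% interval that stayed within 1 on the log2 scale to either side and 21 an interval within 0.5. The median half-width of the interval was 0.286, with the narrowest, 0.110, in XRCC6 and the widest, 0.807, in FANCB, which had between 7 and 20 counts per library.

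Transcript length moved with the fold change in these libraries. Across 11059 genes with an annotated length, Spearman's rho between length and log2 fold change in HUWE1-CS against HUWE1-P cells was -0.261, as a description over genes that share the same libraries. The members are long, with a median transcript of 4622 bases beside 3348 bases of all genes, and among the 53 the rho was -0.0163. When the trend with length was removed from the counts before the fit, the members' median became -0.09 with all genes at 0.02. The called members were then 9 (17.0%, beside 16.8% of all genes), of which 3 were lower and 6 higher, in place of 5 lower and 3 higher. The calls of NBN and SLX4 were lost and those of PARP1, XRCC6 and WRN gained. Against HUWE1-WT cells, the median after removal was -0.01, with 4 members called lower and 5 higher, beside 15.7% of all genes called. The source of the length trend was not tested.

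**Figure D2:**
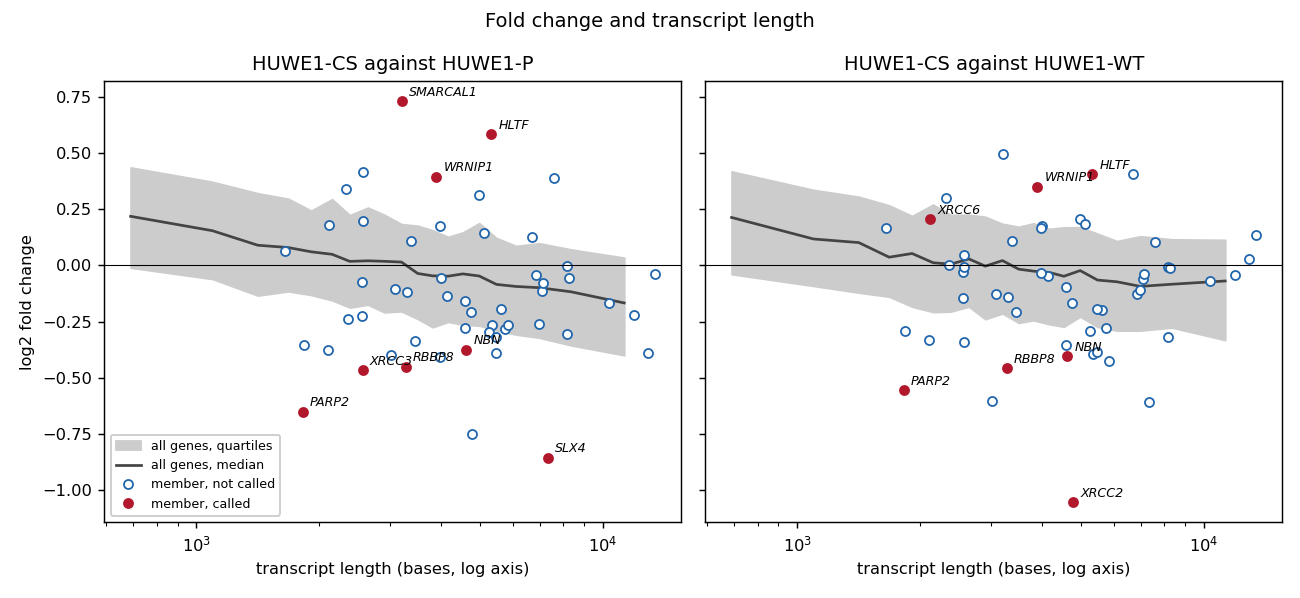
Log2 fold change (y axis) against transcript length in bases (x axis, log scale) in HUWE1-CS against HUWE1-P (left) and HUWE1-WT cells (right). The line and band are the median and quartiles of 20 length bins of all genes, falling from 0.22 to -0.17 on the left, and points are members, red where called.

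The kinases and their activators held 0 called members of 7 in either comparison, beside 17.0% and 15.5% of all genes. With 7 genes, this count cannot be set apart from those shares. ATM, the apical kinase of the break response, had 44.7, 39.3 and 37.6 CPM in the HUWE1-P libraries, 31.9, 28.9 and 29.7 CPM in the HUWE1-WT libraries and 31.5, 26.7 and 34.3 CPM in the HUWE1-CS libraries. Both edited lines lay below the parental cells without overlap, and they overlapped each other. The log2 fold change was -0.39 (SE 0.158, adjusted p = 0.0580) for HUWE1-CS against parental cells and -0.42 (SE 0.158, adjusted p = 0.730) in HUWE1-WT against HUWE1-P cells. Between HUWE1-CS and HUWE1-WT cells it was 0.03, with a 95% interval from -0.31 to 0.37. A difference in ATM transcript between the edited lines was therefore not detectable at this depth.

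ATR, the kinase of stalled forks, had 55.9, 41.5 and 62.6 CPM in HUWE1-P, 56.2, 48.0 and 57.6 CPM in HUWE1-WT and 55.2, 43.1 and 62.7 CPM in HUWE1-CS libraries. The lines overlapped over their whole range, and the interval of the log2 fold change against HUWE1-P cells ran from -0.28 to 0.27. CHEK2, the checkpoint kinase downstream of ATM, had 43.4, 45.5 and 51.1 CPM in HUWE1-P, 39.4, 47.4 and 48.3 CPM in HUWE1-WT and 38.0, 36.9 and 35.4 CPM in HUWE1-CS libraries. All HUWE1-CS libraries lay below the 6 controls, the nearest pair being 38.0 and 39.4 CPM, but the log2 fold changes of -0.35 (adjusted p = 0.0640) and -0.29 (adjusted p = 0.145) did not pass. CHEK2 has pseudogene copies with near-identical sequence and shares 6.52% of its exon bases with HSCB on the other strand, so its count is uncertain. TOPBP1, which activates ATR, missed the threshold in both comparisons (log2 fold changes -0.28 and -0.28, adjusted p = 0.0179 and 0.0214). ATRIP, CHEK1 and ETAA1, another activator of ATR, lay between -0.16 and 0.32 against HUWE1-P cells.

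Of the 3 subunits of the MRN complex, NBN was called in both comparisons. RAD50, the zinc-hook ATPase, had 114, 106 and 95.9 CPM in HUWE1-P, 92.7, 113 and 98.8 CPM in HUWE1-WT and 112, 98.1 and 92.3 CPM in HUWE1-CS libraries. MRE11, the nuclease, had 21.1, 23.0 and 17.8 CPM in HUWE1-P, 27.2, 20.2 and 18.0 CPM in HUWE1-WT and 25.5, 17.6 and 16.8 CPM in HUWE1-CS libraries. For both genes the 3 lines overlapped. NBN, the subunit that holds ATM, had 108, 101 and 108 CPM in HUWE1-P, 107, 96.0 and 121 CPM in HUWE1-WT and 89.6, 74.9 and 80.1 CPM in HUWE1-CS libraries, all of the last below the 6 controls. NBN fell by 22.9% against HUWE1-P cells (log2 fold change -0.38, SE 0.105, adjusted p = 0.00380). It fell by 24.5% against HUWE1-WT cells (-0.40, SE 0.105, adjusted p = 0.00189).

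The log2 fold changes of RAD50 and MRE11 against HUWE1-P cells were -0.05 (95% interval -0.26 to 0.15) and -0.04 (-0.46 to 0.38). The difference between subunits was not tested, and the MRE11 interval, from 29 to 47 counts per library, includes the NBN value. NBN (Entrez 4683, chromosome 8, 90936743 to 91015456, minus strand, GRCh37) lost its call against HUWE1-P cells in 7 of 22 alternative settings. An FDR of 0.05, which reuses the main fit and cannot lose a call, is counted among these and the settings below. Those against HUWE1-P cells also count the mean of both control lines, which is not that line alone. With HUWE1-P replicate 1 or 3 left out NBN was -0.36 (adjusted p = 0.0180 and 0.0218). Without HUWE1-CS replicate 2 or 3 it was -0.31 and -0.36 (adjusted p = 0.0410 and 0.0175). In DESeq2 the NBN call was lost against both HUWE1-P (-0.37, adjusted p = 0.0386) and HUWE1-WT cells (-0.40, adjusted p = 0.0234). Against HUWE1-WT cells the call was lost in 4 of 21, DESeq2 included. The others were the fits without HUWE1-WT replicate 3 (-0.32, adjusted p = 0.0467), HUWE1-CS replicate 2 (-0.34, adjusted p = 0.0247) and HUWE1-CS replicate 3 (-0.39, adjusted p = 0.0102).

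Among the other genes of broken ends, RBBP8 was the only called member. RBBP8 encodes CtIP, the cofactor with which MRN starts resection (Entrez 5932, chromosome 18, 20378224 to 20606451, plus strand, GRCh37). It had 116, 87.0 and 102 CPM in HUWE1-P, 96.2, 99.2 and 110 CPM in HUWE1-WT and 74.2, 76.0 and 72.0 CPM in HUWE1-CS libraries. The HUWE1-CS libraries lay close together and below all 6 controls. RBBP8 decreased by 26.8% against HUWE1-P (log2 fold change -0.45, SE 0.108, adjusted p = 6.77e-04) and decreased by 27.2% against HUWE1-WT cells (-0.46, SE 0.109, adjusted p = 6.38e-04). The call was lost in DESeq2, where the adjusted p was 0.0120 and 0.0114, without HUWE1-P replicate 1 in the first comparison (-0.35, adjusted p = 0.0233) and without HUWE1-WT replicate 3 in the second (-0.40, adjusted p = 0.0123). The exonuclease EXO1, the adaptor MDC1, TP53BP1 (53BP1) and ubiquitin ligases RNF8 and RNF168 had log2 fold changes between -0.34 and -0.17 against HUWE1-P cells. UIMC1, the RAP80 subunit of a BRCA1 complex, had 0.41 (adjusted p = 0.0712) against HUWE1-P cells. It had 0.05 (adjusted p = 0.882) against HUWE1-WT cells, and 0.37 in HUWE1-WT against HUWE1-P cells. Together with MRN, 9 of these 10 genes had a negative value against either control line, beside 50.9% and 50.0% of all genes. Called were 2 of the 10, beside 17.0% of all genes against HUWE1-P and 15.5% against HUWE1-WT cells.

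**Figure D3:**
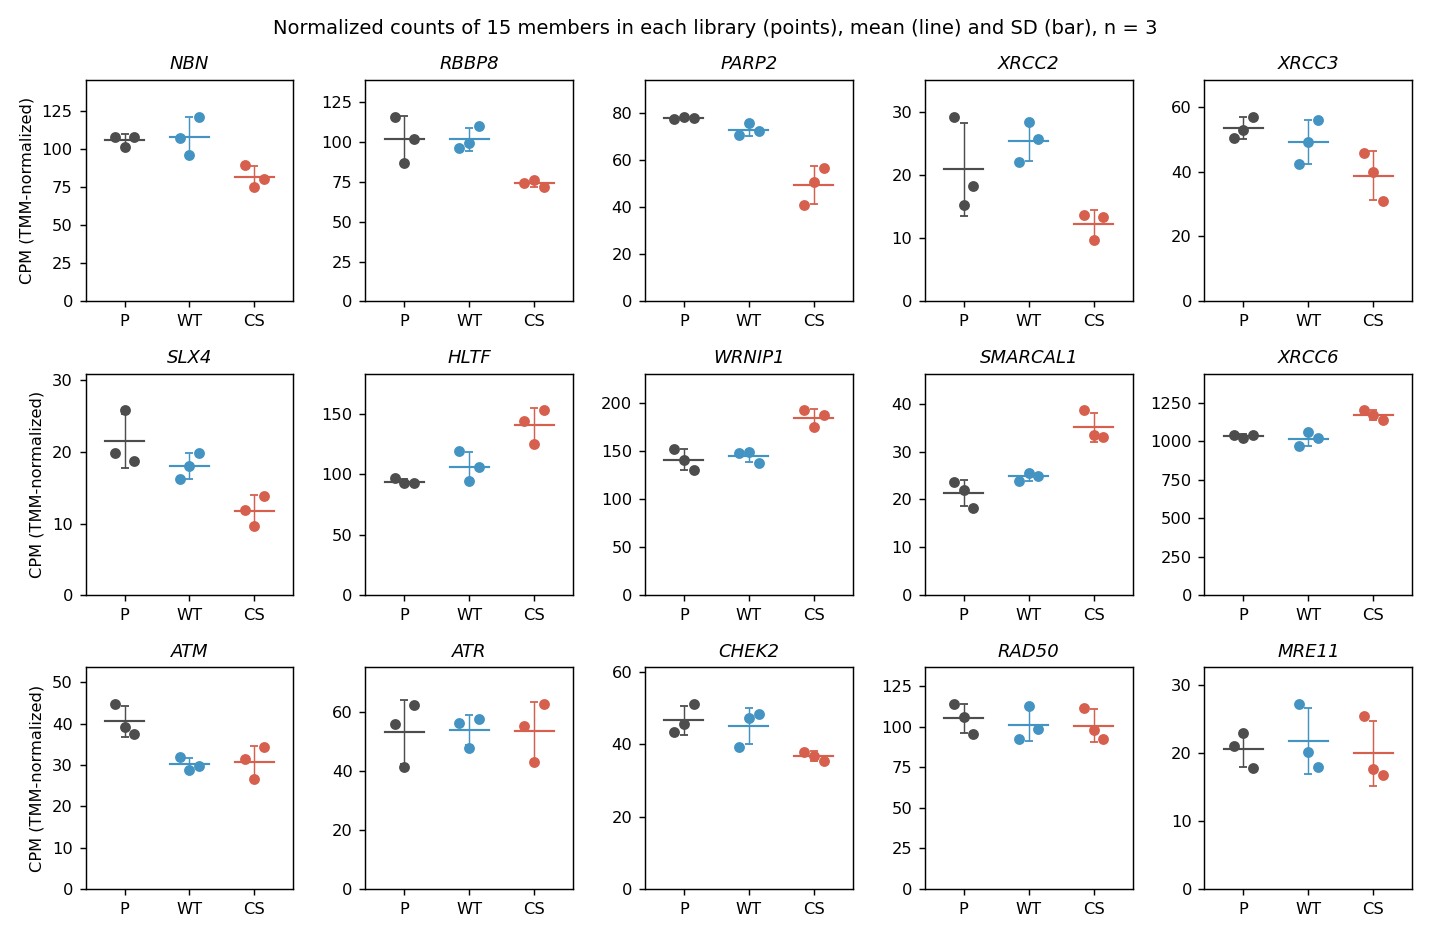
Normalized count in CPM (y axis, from 0) of 15 members in each library, with 3 libraries of parental cells (P), 3 of cells rebuilt with cysteine (WT) and 3 of cells with serine (CS), with the mean (line) and SD (bar). The upper and middle rows hold the 10 members called against at least 1 control line, 6 lower and 4 higher, and the lower row ATM, ATR, CHEK2, RAD50 and MRE11, which were not called.

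In homologous recombination, all 9 genes had a log2 fold change below 0 against HUWE1-P cells, beside 50.9% of all genes. Against HUWE1-WT cells 8 of 9 were below 0, beside 50.0% of all genes, and PALB2 had 0.18. In each comparison 1 was called, XRCC3 against HUWE1-P and XRCC2 against HUWE1-WT cells, beside 17.0% and 15.5% of all genes. XRCC3 (Entrez 7517, chromosome 14, 104163946 to 104181841, minus strand, GRCh37), a partner of RAD51C in late recombination, had 50.3, 52.8 and 56.9 CPM in HUWE1-P, 42.3, 49.1 and 55.8 CPM in HUWE1-WT and 45.7, 39.7 and 30.8 CPM in HUWE1-CS libraries. HUWE1-CS lay below HUWE1-P throughout and overlapped HUWE1-WT. The log2 fold change was -0.47 (SE 0.144, adjusted p = 0.00965) against HUWE1-P and -0.34 (SE 0.148, adjusted p = 0.0799) against HUWE1-WT cells. The first value sits at the threshold and was lost in 12 of 22 settings, DESeq2 included (adjusted p = 0.0803), and it was -0.32 (adjusted p = 0.135) without HUWE1-CS replicate 3. XRCC3 shares 76.7% of its annotated exon bases with KLC1 on the other strand. KLC1 had 94.9 ± 11.3, 95.1 ± 1.81 and 110 ± 5.99 CPM (SD, n = 3 each), a log2 fold change of 0.23 against HUWE1-P cells, and since the use of strand in counting is not stated, reads of overlapping genes cannot be told apart.

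XRCC2 (Entrez 7516, chromosome 7, 152341861 to 152373278, minus strand, GRCh37), a recombination gene whose product acts with RAD51D, showed the lowest fold of the list against HUWE1-WT cells. Its libraries held 29.2, 15.2 and 18.3 CPM in HUWE1-P, 22.0, 28.4 and 25.6 CPM in HUWE1-WT and 13.6, 9.64 and 13.4 CPM in HUWE1-CS cells, from raw counts of 47, 27 and 38, of 38, 52 and 44, and of 23, 17 and 23. All HUWE1-CS libraries lay below the controls, with a wide spread among the HUWE1-P libraries. XRCC2 decreased by 51.8% against HUWE1-WT cells (log2 fold change -1.05, SE 0.231, adjusted p = 2.18e-04), a call kept in all 21 alternatives. Against HUWE1-P cells it was -0.75 (SE 0.241, adjusted p = 0.0133), and that value moved with the HUWE1-P library left out. It was -0.46 (adjusted p = 0.223) without HUWE1-P replicate 1, the highest of its line, and -0.92 (adjusted p = 0.00367) without HUWE1-P replicate 2, the lowest. BRCA1, BRCA2 and PALB2, which act together in recombination, had log2 fold changes of -0.11, -0.22 and -0.06 against HUWE1-P cells, RAD51C had -0.07 (95% interval -0.32 to 0.17), and the translocase gene RAD54L had -0.11. BARD1, the BRCA1 partner, and RAD51AP1 had -0.39 and -0.38 (adjusted p = 0.222 and 0.0725).

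WRNIP1, the ATPase at the centre of the study, was higher in HUWE1-CS cells (Entrez 56897, chromosome 6, 2765627 to 2787186, plus strand, GRCh37). Its libraries had 152, 141 and 130 CPM in HUWE1-P, 148, 149 and 137 CPM in HUWE1-WT and 192, 175 and 187 CPM in HUWE1-CS cells. The lowest HUWE1-CS library stood above the highest control, and the control lines overlapped. WRNIP1 rose by 31.4% against HUWE1-P (log2 fold change 0.39, SE 0.0830, adjusted p = 1.00e-04) and by 27.5% against HUWE1-WT cells (0.35, SE 0.0830, adjusted p = 6.20e-04). It passed in 22 of 22 alternatives in the first comparison and in 20 of 21 in the second, the exception being the fit without HUWE1-WT replicate 3 (0.31, adjusted p = 0.0109). WRN, the Werner helicase it was named for, had 0.39 (SE 0.166, adjusted p = 0.0708) against HUWE1-P and 0.10 against HUWE1-WT cells. The Bloom helicase gene BLM had -0.30 and -0.29, and its partner RMI1 -0.12 and -0.14, none of them called.

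Of the Fanconi anemia and nuclease genes, 1 of 13 was called against HUWE1-P and 0 against HUWE1-WT cells. All genes had 17.0% and 15.5% called, and 13 genes are too few to set apart from these shares. SLX4 (Entrez 84464, chromosome 16, 3631182 to 3661607, minus strand, GRCh37), the scaffold that holds the MUS81-EME1 and other nucleases, had 19.9, 25.8 and 18.8 CPM in HUWE1-P, 16.2, 18.0 and 19.8 CPM in HUWE1-WT and 11.9, 9.64 and 13.9 CPM in HUWE1-CS libraries. The HUWE1-CS libraries were the 3 lowest, at 17 to 24 counts. The log2 fold change was -0.86 (SE 0.235, adjusted p = 0.00322) against HUWE1-P and -0.61 (SE 0.245, adjusted p = 0.0587) against HUWE1-WT cells. The first call was lost in 6 of 22 settings, among them DESeq2 (adjusted p = 0.0353), the removal of the length trend (-0.72, adjusted p = 0.0145), and the fits without HUWE1-P replicate 2 (-0.70), HUWE1-CS replicate 1 (-0.86) or HUWE1-CS replicate 2 (-0.72). MUS81 and EME1 had -0.24 and 0.34 against HUWE1-P cells.

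The core complex genes FANCA, FANCC, FANCE, FANCG, FANCL and FANCM lay between -0.32 and 0.20 against HUWE1-P cells. FANCA, which shares 19.6% of its exon bases with ZNF276 on the other strand, came nearest to the threshold (-0.32, adjusted p = 0.0140), and FANCB, at 7 to 20 counts, had -0.40 with an interval from -1.21 to 0.41. The heterodimer that the core complex ubiquitinates had 0.14 for FANCD2 and -0.21 for FANCI. FANCD2 has pseudogene copies, which makes its count uncertain. BRIP1, the FANCJ helicase, had HUWE1-CS libraries below all controls, at 39.8, 43.7 and 40.1 CPM beside a lowest control of 45.3 CPM, but did not pass (-0.31 and -0.32, adjusted p = 0.100 and 0.0916).

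Fork remodelers held the called members with the largest increases against HUWE1-P cells. HLTF (Entrez 6596, chromosome 3, 148747914 to 148804341, minus strand, GRCh37), a translocase and PCNA ubiquitin ligase that reverses forks, had 96.8, 92.6 and 92.5 CPM in HUWE1-P, 119, 94.3 and 106 CPM in HUWE1-WT and 144, 125 and 153 CPM in HUWE1-CS libraries. Every HUWE1-CS library exceeded every control, and the HUWE1-WT libraries spread toward the HUWE1-CS range. HLTF rose by 50.0% against HUWE1-P (log2 fold change 0.59, SE 0.0968, adjusted p = 7.44e-07), the smallest p-value of the list, and by 32.4% against HUWE1-WT cells (0.41, SE 0.0952, adjusted p = 5.62e-04). The second call was lost without HUWE1-WT replicate 2 (0.33, adjusted p = 0.0152), and the first was kept in 22 of 22 settings.

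HLTF shares 27.4% of its annotated exon bases with GYG1 on the other strand, a glycogenin gene that is no member. GYG1 had 44.7, 46.6 and 48.7 CPM in HUWE1-P, 44, 51.3 and 65.7 CPM in HUWE1-WT and 82.5, 90.2 and 63.9 CPM in HUWE1-CS libraries, and rose by a log2 fold change of 0.75 (SE 0.131, adjusted p = 2.32e-06) against HUWE1-P cells. Among the HUWE1-CS libraries, replicate 3 had the most HLTF and the least GYG1, while against HUWE1-P cells both genes were higher. An order within 3 libraries cannot show whether reads were shared. How many reads of the shared bases were given to either gene was not tested.

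SMARCAL1 (Entrez 50485, chromosome 2, 217277106 to 217347776, plus strand, GRCh37), an annealing helicase that also reverses forks, had 23.6, 21.9 and 18.3 CPM in HUWE1-P, 23.8, 25.6 and 25 CPM in HUWE1-WT and 38.6, 33.5 and 33.1 CPM in HUWE1-CS libraries. The HUWE1-CS libraries stood above all controls. The increase was 66.1% against HUWE1-P (log2 fold change 0.73, SE 0.178, adjusted p = 7.96e-04), and against HUWE1-WT cells the value was 0.50 (SE 0.173, adjusted p = 0.0254). The call was lost in DESeq2 (adjusted p = 0.0147) and without HUWE1-P replicate 3 (0.62, adjusted p = 0.0170). ZRANB3, the other annealing helicase, had 15 to 28 counts per library and log2 fold changes of 0.13 (95% interval -0.42 to 0.67) and 0.41 (-0.16 to 0.98), and its difference from SMARCAL1 was not tested. RAD18, the PCNA ubiquitin ligase, had -0.27 and -0.42 (adjusted p = 0.181 and 0.0218).

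End joining holds the most abundant transcripts of the list, where small differences can be resolved. XRCC6 (Entrez 2547, chromosome 22, 42017167 to 42060052, plus strand, GRCh37), the Ku70 gene, had raw counts of 1676, 1826 and 2152 in HUWE1-P, 1670, 1937 and 1756 in HUWE1-WT and 2022, 2062 and 1969 in HUWE1-CS libraries. After normalization the 3 HUWE1-CS libraries were above all 6 controls. The rise against HUWE1-WT cells was 15.3% (log2 fold change 0.21, SE 0.0557, adjusted p = 0.00310). Against HUWE1-P cells 0.18 (SE 0.0556) stood at the threshold (adjusted p = 0.0101) and passed it in 15 of 22 settings. The 15 include the FDR of 0.05, which this value passes without a new fit, and the mean of both control lines. The call against HUWE1-WT cells was lost without HUWE1-WT replicate 1 (0.17, adjusted p = 0.0243), HUWE1-WT replicate 3 (0.21, adjusted p = 0.0135) or HUWE1-CS replicate 1 (0.19, adjusted p = 0.0217). Its partner XRCC5, Ku80, had 0.11 in both comparisons with intervals from -0.01 to 0.23, which overlap those of XRCC6. PRKDC, the catalytic subunit of DNA-PK, had -0.04 and 0.13, and LIG4, the ligase, -0.41 and -0.03. After removal of the length trend, PRKDC was called higher against HUWE1-WT cells (0.25, adjusted p = 1.11e-04).

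The PARP enzymes, which mark breaks with ADP-ribose, had fold changes of opposite sign. PARP2 (Entrez 10038, chromosome 14, 20811774 to 20826063, plus strand, GRCh37) had 77.6, 78.6 and 78.1 CPM in HUWE1-P, 70.7, 75.8 and 72.7 CPM in HUWE1-WT and 40.9, 51.0 and 56.9 CPM in HUWE1-CS libraries. The HUWE1-CS libraries lay far below both tight control groups. PARP2 fell by 36.3% against HUWE1-P (log2 fold change -0.65, SE 0.123, adjusted p = 1.45e-05) and fell by 32.0% against HUWE1-WT cells (-0.56, SE 0.126, adjusted p = 3.28e-04). The call held in 22 of 22 settings in the first comparison and in 20 of 21 in the second, where it was lost without HUWE1-CS replicate 1 (-0.44, adjusted p = 0.0138). PARP1, which does most of the cellular ADP-ribosylation, had 511, 491 and 514 CPM in HUWE1-P, 495, 507 and 523 CPM in HUWE1-WT and 574, 605 and 534 CPM in HUWE1-CS libraries. All HUWE1-CS libraries were above the controls, and the log2 fold changes of 0.18 and 0.17 (adjusted p = 0.0259 and 0.0374) did not pass. With the length trend removed, PARP1 was called in both comparisons at 0.24 and 0.23 (adjusted p = 6.24e-04 and 0.00103).

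Scaled by transcript length, so that levels of different genes can be compared, the list spans from 506 CPM per kb for XRCC6 to 1.67 CPM per kb for ZRANB3 (means of all 9 libraries). XRCC6, XRCC5 at 233 and PARP1 at 133 CPM per kb led, followed by PRKDC at 54.6 and WRNIP1 at 40.3 CPM per kb. The MRN subunits were uneven on this scale, with 21.3 CPM per kb for NBN, 12.4 for RAD50 and 3.04 for MRE11. ATM, at 2.62 CPM per kb, was at rank 50 of 53, below ATR at 6.58 CPM per kb. Neighbours in the order can be equal, as NBN and TOPBP1, both at 21.3 CPM per kb. The scaling uses 1 annotated transcript per gene. RAD50 shares 76.9% of its exon bases with a gene on the same strand that is not counted, ATRIP 26.7% with TREX1 on the same strand and TP53BP1 28.8% with TUBGCP4 on the other.

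**Figure D4:**
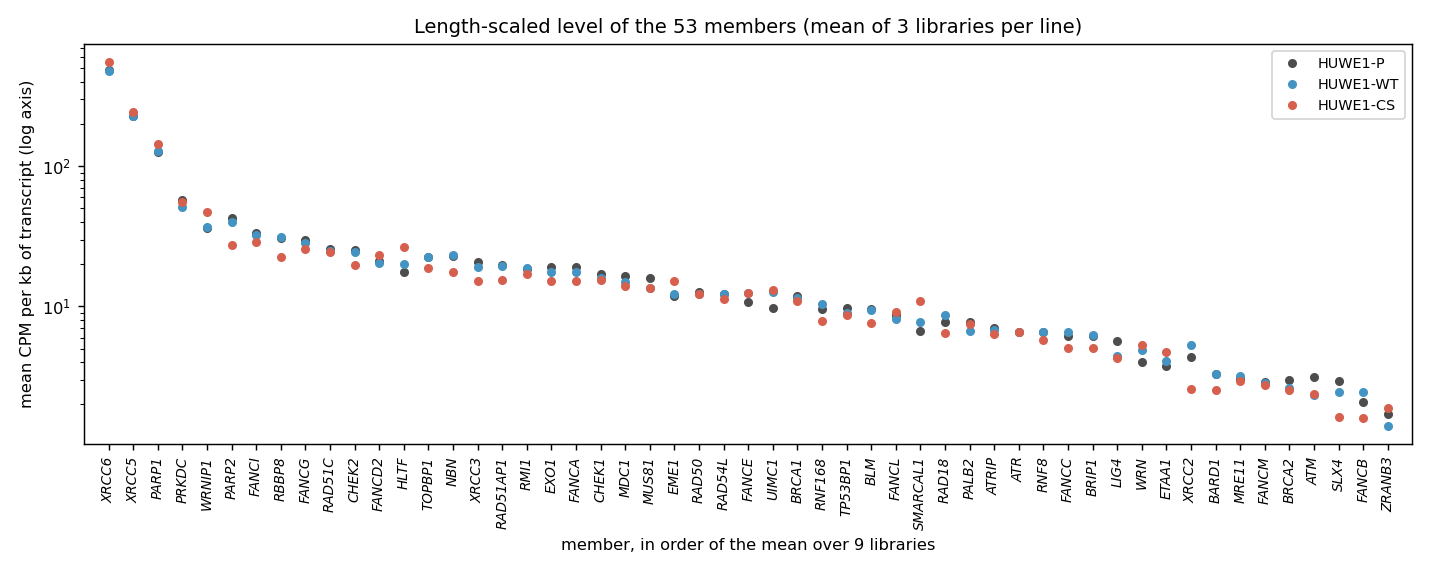
Mean level in CPM per kb of transcript (y axis, log scale) of the 53 members (x axis, in order of the mean of 9 libraries), drawn separately for each line from its 3 libraries. The range runs from 506 CPM per kb for XRCC6 to 1.67 CPM per kb for ZRANB3, and the 3 lines mostly coincide.

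S-phase transcripts moved in these cells and are given beside the members, of which several are known to peak in S phase. Of 22 replication and S-phase genes listed, 9 were called against HUWE1-P cells (40.9%, beside 17.0% of all genes), 8 of them lower. The median log2 fold change of the 22 was -0.23. RRM2 and MCM6 had -0.65 and -0.53 and the cyclin gene CCNE2 -1.50 (adjusted p = 1.07e-14, 1.05e-08 and 3.91e-09), and PCNA was higher at 0.24. Against HUWE1-WT cells, 6 were called (27.3%, beside 15.5% of all genes), all lower. In bulk RNA, fewer cells in S phase and less of these transcripts per cell cannot be told apart, and the part of either in the members' values was not tested.

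In 73 further genes of the DNA damage response that were counted, of 75 listed, 6 were called against HUWE1-P cells (8.22%), 5 lower and 1 higher, and 6 against HUWE1-WT cells, 3 lower and 3 higher. Lower were TONSL (log2 fold change -0.51, adjusted p = 1.35e-07), which marks newly made chromatin for recombination, the Fanconi-associated histone-fold gene CENPX (-0.52, adjusted p = 3.22e-06), CLSPN (-0.45, adjusted p = 2.16e-04), the claspin that couples ATR to CHEK1, the helicase gene RECQL4 (-0.23, adjusted p = 0.00857) and the recombination gene RAD51D (-0.87, adjusted p = 0.00913). TRIM28, a heterochromatin factor phosphorylated by ATM, was higher (0.29, adjusted p = 1.03e-05). RAD51D acts with XRCC2, but against HUWE1-WT cells it had -0.06, where XRCC2 had -1.05. Of these 6, TONSL, CENPX and TRIM28 were also called against HUWE1-WT cells. The others called against HUWE1-WT cells were LIG1 (0.42, adjusted p = 1.62e-04) and TIMELESS (0.32, adjusted p = 0.00263), which were higher, and XRCC4 (-0.63, adjusted p = 0.00768), which was lower. All genes had 17.0% and 15.5% called in the same comparisons.

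Of the members, 19 start within 1000 bases of a counted gene on the opposite strand, which allows each to be set beside a neighbour with a shared promoter region. In 11 of the 19 pairs both genes had the same sign against HUWE1-P cells, where 50.9% of all genes were below 0. In 0 pairs were both called and in 5 pairs 1 gene was, 3 of these being partners. Beside this, 17.0% of all genes were called. With 19 pairs, these counts cannot be set apart from those of unrelated genes. PRKDC, whose start lies 7 bases from that of the replicative helicase gene MCM4, had 770 ± 42.6 CPM in parental, 684 ± 53 CPM in HUWE1-WT and 751 ± 76.5 CPM in HUWE1-CS cells (SD, n = 3 each), a log2 fold change of -0.04. MCM4 had 487 ± 47.1, 497 ± 11.9 and 400 ± 4.32 CPM in the same order, and was called lower at -0.29 (adjusted p = 3.16e-04). MAP1A beside TP53BP1 (-1.19, adjusted p = 3.37e-04) and TUBB beside MDC1 (-0.44, adjusted p = 1.17e-08) were likewise called lower where the member, at -0.17 and -0.26, was not. Conversely, XRCC3 and SLX4 were called and their partners ZFYVE21 (-0.04) and DNASE1 (-0.30) were not. ATM and its partner NPAT had -0.39 and -0.14, neither of them called, and the differences within pairs were not tested.

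**Figure D5:**
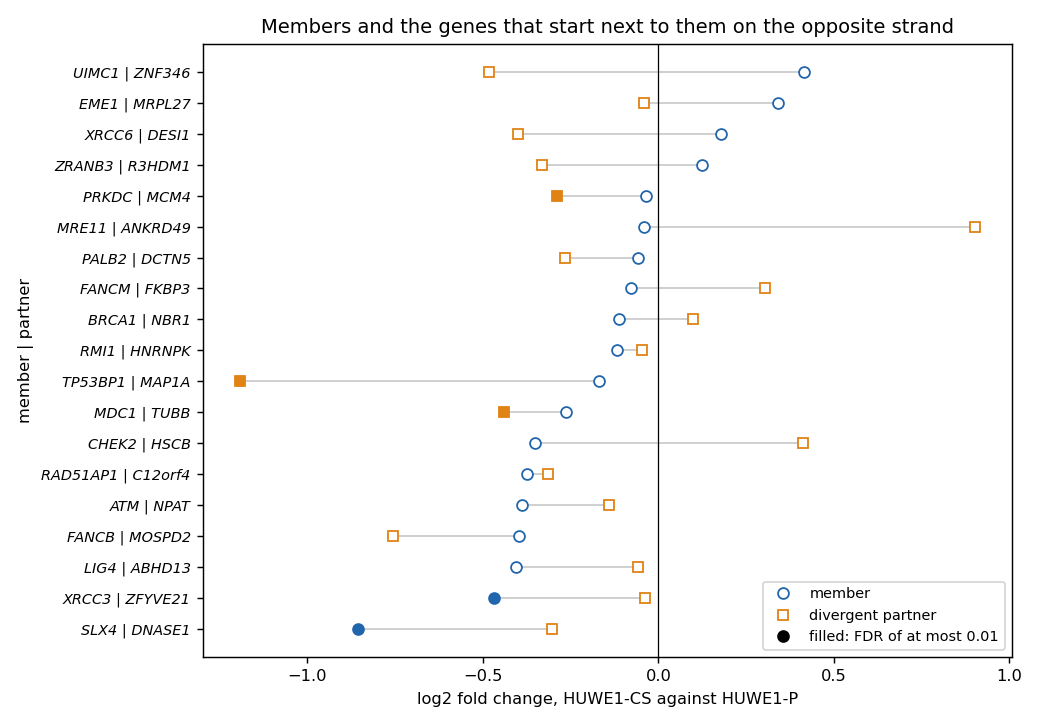
Log2 fold change in HUWE1-CS against HUWE1-P cells (x axis) of 19 members (blue circles) and of the genes that start within 1000 bases on the opposite strand (orange squares), 1 pair per line (y axis). Filled symbols were called at an FDR of at most 0.01, 2 members and 3 partners, beside 17.0% of all genes. No pair has both filled.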

How the data were processed

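Polyadenylated RNA of 9 libraries was sequenced by single-end reads. Reads trimmed by Skewer were aligned to hg19 (STAR 2.5.4), from which the authors deposited raw read counts per gene. The submitters' processing notes also name bcl2fastq 2.20 and edgeR 3.26.8. The counting tool, its annotation and its use of strand are not given in the sources used here. The authors' deposited tables of fold changes and p-values hold their own comparisons and were not used.

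Counts of 11350 genes were normalized by TMM and tested with edgeR 4.0.16 in R 4.3.3 (glmQLFit, glmQLFTest, legacy estimator) on all 9 libraries in a model of the line alone, without a filter, and Benjamini-Hochberg adjustment over all genes. The common biological coefficient of variation was 4.77%. DESeq2 1.42.0 and limma 3.58.1 served as alternatives. SE is the absolute log2 fold change divided by the root of F, and 95% intervals use a t quantile at 95.5 degrees of freedom. CPM are TMM-normalized. The code was tested on simulated counts. Replicate pairs differed beyond sampling noise (chi-square per degree of freedom 1.16 to 1.65), so no library was treated as a duplicate.

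Positions, lengths and exon overlaps came from GENCODE on GRCh37, with 1 transcript per gene for length (11059 genes), all transcripts for overlaps. Members and lists were chosen with earlier results of these data known. Named in full were members called against either control line and ATM, RAD50, MRE11, NBN, CHEK2, ATR and WRNIP1. Of the further response genes, the 6 smallest p-values against HUWE1-P cells and every gene called against HUWE1-WT cells were named. Of the S-phase genes, the 3 smallest p-values were named. Promoters printed are those of the called members with the smallest p-values in each direction that have an entry. Alternatives were DESeq2, limma-voom, the newer edgeR estimator, a robust fit, RLE factors, total counts, a minimum of 10 counts per library, a separate fit for each pair of lines, the replicate number as a block, removal of the trend with transcript length (lowess, span 0.3), both together, omission of each library and an FDR of 0.05. The mean of both control lines was added after seeing the data and is counted among the 22 settings against HUWE1-P cells.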

Additional observations from a re-analysis of the deposited data

How the results depend on the processing

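Among the called members, no value in HUWE1-CS against either control line reversed its sign. In HUWE1-CS against HUWE1-P cells, DESeq2 called 4 members in place of 8, and an FDR of 0.05 called 15 members (28.3%, beside 26.4% of all genes) and 13 of the further response genes. With each library left out in turn, members called ranged from 5 to 9, with 5 without HUWE1-P replicate 1 or without HUWE1-P replicate 3, and S-phase genes from 5 to 9, with 5 without HUWE1-P replicate 3. The members' median was -0.0855 with the transcript length trend removed and -0.0835 when the replicate block was added to that.

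Against HUWE1-WT cells, an FDR of 0.05 called 12 members (22.6%, beside 24.4% of all genes) and 13 further response genes, members called ranged from 3 to 7 with each library left out, with 3 without HUWE1-WT replicate 3, and the median was -0.0082 with the length trend removed. HUWE1-WT against HUWE1-P cells had 0 called members in all 21 alternatives. Over all genes, DESeq2 called 1088, 998 and 0 in HUWE1-CS against HUWE1-P, HUWE1-CS against HUWE1-WT and HUWE1-WT against HUWE1-P cells, in place of 1934, 1759 and 7, and the last count ranged from 1 to 19 with a library left out. The cause was not tested. Alternatives not named here kept the counts of the gene lists within 1.5 times and the medians within the spread between libraries.

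Replicate numbers are shared between lines, and whether they pair the samples is not stated. Over all genes, correlations of deviations between libraries of the same number lay between -0.0195 and 0.0579. Differences between replicates were not far above sampling noise (chi-square per degree of freedom 1.16 to 1.65). These correlations therefore cannot decide on pairing. With the replicate block, 8, 7 and 0 members were called in the 3 comparisons, XRCC3 being replaced by XRCC6 in the first. Depth limits the rarest members, since at 7 to 20 counts per library FANCB carried an interval of 0.807 to either side.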
